A study of Mus musculus with 4 samples.

Results

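The genes described here are the ID inhibitors *Id1*, *Id2* and *Id3*, the E protein genes *Tcf3*, *Tcf4* and *Tcf12*, their blood partners *Tal1* and *Lyl1*, and the related repressor *Hes1*. They were chosen by symbol, and all 9 were found among the 19354 genes with values. Hematopoietic stem cells (HSCs) were sorted from bone marrow of *Mx1-Cre*; Id2+/+ mice and of *Mx1-Cre*; Id2Fl/Fl mice, 14 and 15 animals aged 8 to 16 weeks. Both genotypes carried the *Mx1-Cre* transgene, whose promoter answers to interferon, and both received pIpC, which turns the Cre on, so the controls had the same Cre and the same treatment. RNA of pooled cells taken 2 weeks after pIpC was sequenced, with 2 libraries for each genotype, called Id2+/+ (WT in the labels) and Id2Δ/Δ (ID2KO) replicates 1 and 2. The work was done in 2 experiments, and nothing in the labels ties a library to an experiment, so the p-values measure the spread between these pools. *Id2* was the targeted gene, and its loss follows from the design and checks the labels.

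ID proteins and E proteins share a helix-loop-helix through which they pair. E proteins also have a basic stretch that holds DNA at short sites called E boxes. ID proteins lack that stretch, so an E protein bound by an ID protein cannot bind DNA. In blood cells E proteins drive lymphoid genes, and they also pair with TAL1 (SCL) or LYL1 in complexes with LMO2 and GATA factors that are needed to form and keep HSCs.

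The end of the *Id2* coding sequence is shown because it is part of what Cre removes. *Id2* is on the minus strand of chromosome 12, at 25093799 to 25097140 in GRCm38. In its GENCODE M21 transcript of 3 exons the 402 coding bases lie in exon 1 (348 bases, lower case) and exon 2 (54 bases, capitals), and both exons are in the floxed segment. Exon 3 is outside it, holds no coding base and, with 776 bases, makes up 61.1% of this transcript.
Id2, coding bases 103 to 402: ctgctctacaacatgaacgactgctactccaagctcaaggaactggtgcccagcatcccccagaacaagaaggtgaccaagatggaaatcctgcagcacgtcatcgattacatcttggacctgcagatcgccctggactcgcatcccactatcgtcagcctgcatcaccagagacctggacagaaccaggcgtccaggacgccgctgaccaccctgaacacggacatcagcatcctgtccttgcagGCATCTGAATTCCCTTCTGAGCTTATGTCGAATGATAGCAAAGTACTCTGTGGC

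The 3 ID genes are most alike over a stretch of 120 coding bases, shown because reads from one ID gene could be counted on another only where they match. The sequences are those of the same annotation, and capitals mark bases that differ from *Id2*. *Id1* had the *Id2* base at 98 of 120 positions and *Id3* at 86.
Id2, coding bases 109 to 228: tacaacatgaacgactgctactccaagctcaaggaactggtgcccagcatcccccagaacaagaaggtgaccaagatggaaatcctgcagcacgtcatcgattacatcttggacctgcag
Id1, coding bases 178 to 297: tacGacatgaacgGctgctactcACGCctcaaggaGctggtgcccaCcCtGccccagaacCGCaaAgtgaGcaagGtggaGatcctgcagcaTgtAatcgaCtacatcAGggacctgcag
Id3, coding bases 124 to 243: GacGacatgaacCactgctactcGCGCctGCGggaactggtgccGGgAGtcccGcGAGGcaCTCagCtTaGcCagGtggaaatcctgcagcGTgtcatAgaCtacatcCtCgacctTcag
The longest run of identical bases between annotated transcripts was 11 for *Id2* and *Id1*, 19 for *Id2* and *Id3*, 12 for *Id1* and *Id3*, and 23 for *Tcf3* and *Tcf4*, the longest among the E protein genes.

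Values were deposited as log2 CPM (counts scaled to a common library total) after quantile normalization, which gave each library a median of 3.92. Below 32 CPM whole reads were inferred from the rank of each distinct value in its library. The depths inferred from them were about 14200000 to 15700000 reads in the Id2+/+ and 17800000 to 18800000 in the Id2Δ/Δ libraries. Id2Δ/Δ replicate 1 stood apart at the low end, with 606 genes at 0 reads against 183 and 170 in Id2+/+ replicates 1 and 2 and 326 in Id2Δ/Δ replicate 2. Averaging 1 CPM or more were 15895 genes, of which 0 had an adjusted p-value under 0.05 between the genotypes (limma with Benjamini-Hochberg adjustment) and 742 had an unadjusted p-value under 0.05. Of the 9 genes, 8 passed this filter and *Id3* did not. With 2 libraries against 2, the smallest two-sided p of an exact permutation test is 0.333. SE below is the standard error.

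HSC markers were present in all libraries. *Kit* was at 10.19 to 11.08 log2 CPM and *Slamf1*, which encodes CD150, at 5.70 to 6.08. Among genes for proteins that the sort gated out, *Cd48* was at 1.40 to 3.04 and *Flt3* at 5.47 to 5.63. NK cells and innate lymphoid cells are known for high *Id2*, and of 7 of their markers *Ncr1*, *Il2rb*, *Klrd1* and *Tbx21* had no row among the values used. The other 3 summed to 104 and 84.4 CPM in Id2+/+ replicates 1 and 2 and to 111 and 93.9 in Id2Δ/Δ replicates 1 and 2. The neutrophil list of 7 summed to 141 and 51.9 CPM in Id2+/+ and 108 and 25.7 in Id2Δ/Δ, with replicate 1 the higher in each genotype. The 5 megakaryocyte markers summed to 339 and 323 CPM in Id2+/+ and to 398 and 410 in Id2Δ/Δ. Of 8 erythroid markers 7 had a row, and they summed to 61.0 and 43.9 CPM in Id2+/+ and 50.1 and 69.9 in Id2Δ/Δ. For B cells 2 of 5 markers had a row, at 33.6 to 51.0 CPM in sum, for T cells 1 of 5, at 1.38 to 3.40, and for dendritic cells 1 of 6, at 0.544 to 3.26. What part other cells had in the values below was not tested.

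*Id2* was the main ID transcript of Id2+/+ HSCs and was not detected in Id2Δ/Δ HSCs. It had 93 reads in Id2+/+ replicate 1 and 98 in replicate 2, which is 6.43 and 6.18 CPM. Both Id2Δ/Δ libraries had 0 reads. A count of 0 allows up to 3 reads, or 0.169 and 0.159 CPM at these depths, which puts *Id2* in each Id2Δ/Δ library at least 36.6-fold lower than in each Id2+/+ library, with the Id2+/+ values taken as measured. The Id2+/+ libraries lay close together and the genotypes did not overlap. In limma the unadjusted p was 0.000181 and the adjusted p was 0.910. The test thus did not call even the targeted gene, so not passing it does not show that a gene is unchanged. The values are for the whole gene, exon 3 included. In pooled cells, fewer cells with a transcript and less of it per cell cannot be told apart. Besides *Id2*, 1 gene was above 1 CPM in both Id2+/+ libraries and at 0 reads in both Id2Δ/Δ libraries, *Prickle2*, named here after its values were seen. Patterns were compared with that of *Id2* among tested genes only, by the root mean square difference of centred log2 values over the 4 libraries. The most alike of these genes were *Dpy19l2* (1.34), *Scara5* (1.69) and *Fat1* (1.79). Their counts were 30 to 74 reads in Id2+/+ and 0 to 8 in Id2Δ/Δ.

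**Figure D1:**
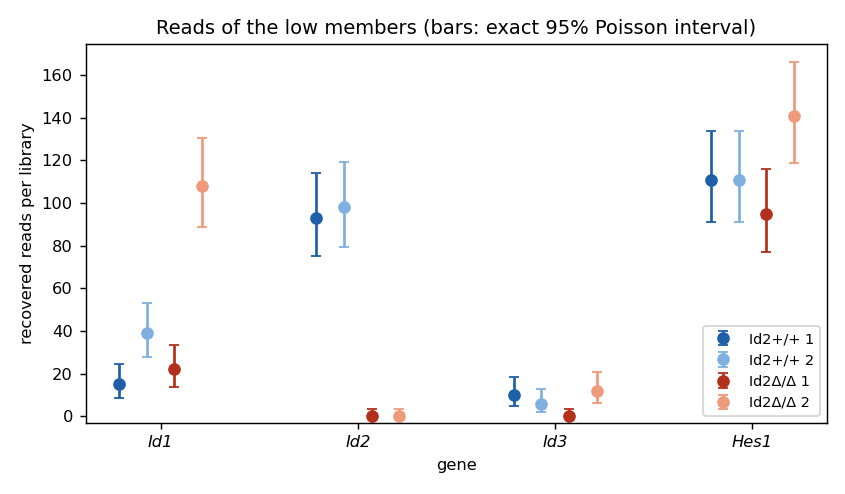
Recovered reads (vertical axis) of *Id1*, *Id2*, *Id3* and *Hes1* in each of the 4 libraries, with the exact 95% Poisson interval of each count as the bar. *Id2* sits at 93 and 98 reads in the Id2+/+ libraries and at 0 in both Id2Δ/Δ libraries, and *Id1* is highest in Id2Δ/Δ replicate 2, at 108 reads.

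*Id1* differed more between replicates than between genotypes. *Id1*, on chromosome 2 from 152736251 to 152737410, encodes an ID inhibitor known as a target of BMP signals. It had 15 reads in Id2+/+ replicate 1 (two-sided 95% Poisson interval 8.40 to 24.7) and 39 in replicate 2 (27.7 to 53.3). In the Id2Δ/Δ libraries it had 22 reads in replicate 1 (13.8 to 33.3) and 108 in replicate 2 (88.6 to 130). Replicate 2 was above replicate 1 in both genotypes, by 2.36-fold in Id2+/+ and 4.86-fold in Id2Δ/Δ on the CPM scale, and the genotypes overlapped. Of all tested genes, 3.89% had a larger gap between the Id2+/+ replicates and 2.57% between the Id2Δ/Δ replicates. The log2 fold change from Id2+/+ to Id2Δ/Δ was 0.79 (SE 0.85, 95% interval -1.20 to 2.77, adjusted p = 0.924 from limma). It was -0.35 without Id2Δ/Δ replicate 2, which thus set its direction, and 1.93 without Id2Δ/Δ replicate 1.

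*Id3*, on chromosome 4 from 136143497 to 136145755, was the lowest of the 9 genes in Id2+/+ HSCs. Its reads were 10 and 6 in Id2+/+ and 0 and 12 in Id2Δ/Δ replicates 1 and 2. The Poisson intervals were 4.80 to 18.4, 2.20 to 13.1, 0 to 3.69 and 6.20 to 20.96 reads. The Id2Δ/Δ libraries thus held both the lowest and the highest value, and the one at 0 was the library in which the most genes had no reads. The fourth ID gene, *Id4*, had 11 and 4 reads in Id2+/+ and 0 and 9 in Id2Δ/Δ, and its lowest library was the same one. The part of that library's many genes at 0 in these values was not tested. Both genes fell under the filter, so no test is given, and in both the genotypes overlapped.

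The ID transcripts were summed per length, as CPM per kilobase of the longest annotated transcript, so that genes could be compared. For *Id2* that length was 1969 bases and the longest coding length 465 bases. Both are longer than in the transcript whose coding end is shown above, and the pool by that transcript's length was not computed. *Id2* made up 69.5% and 56.5% of this pool in the Id2+/+ libraries, *Id1* 19.1% and 38.2%, and *Id3* 11.3% and 5.32%. By reads alone, *Id2* had 93 of 118 ID reads in Id2+/+ replicate 1 (78.8%, exact binomial 95% interval 70.3 to 85.8) and 98 of 143 in replicate 2 (68.5%, 60.2 to 76.0). In Id2Δ/Δ HSCs the pool was *Id1*, at 100% in replicate 1 and 90.1% in replicate 2. That 100% rests on 22 reads. For 0 *Id2* reads among 22 ID reads the exact binomial 95% interval runs up to 15.4%. For 0 among 120 in replicate 2 it runs up to 3.03%. The size of the pool was 4.70 and 5.56 CPM per kilobase in Id2+/+, 1.08 in Id2Δ/Δ replicate 1 and 5.84 in Id2Δ/Δ replicate 2. Id2Δ/Δ replicate 1 thus lay below both controls on this scale and replicate 2 above both, and the place of replicate 2 turned with the length used. In CPM not divided by length the pool was 8.15 and 9.02 in Id2+/+ and 1.25 and 6.84 in Id2Δ/Δ, and per kilobase of coding length it was 17.8 and 19.2 against 2.49 and 14.2. On both of these scales the Id2Δ/Δ libraries lay below both controls (exact two-sided permutation p = 0.333 each, the smallest possible). The pool includes *Id2*, the targeted gene, so its loss by design lowers the pool and its share of the E protein transcripts. Set against the summed E protein transcripts on the same scale, the ID pool was 5.01% and 5.82% in Id2+/+ and 1.36% and 6.23% in Id2Δ/Δ per transcript length (exact two-sided permutation p = 1). This share was 1.76% and 1.89% in Id2+/+ against 0.290% and 1.54% in Id2Δ/Δ in undivided CPM. By coding length it was 7.86% and 8.28% against 1.18% and 6.52%, and on neither of these scales did the genotypes overlap (exact permutation p = 0.333 each). Without *Id2*, *Id1* and *Id3* came to 1.53% and 2.53% of the E protein pool in Id2+/+ per transcript length. In Id2Δ/Δ replicates 1 and 2 they came to 1.36% and 6.23%. The genotypes overlapped in this share per transcript length, in undivided CPM and by coding length.

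**Figure D2:**
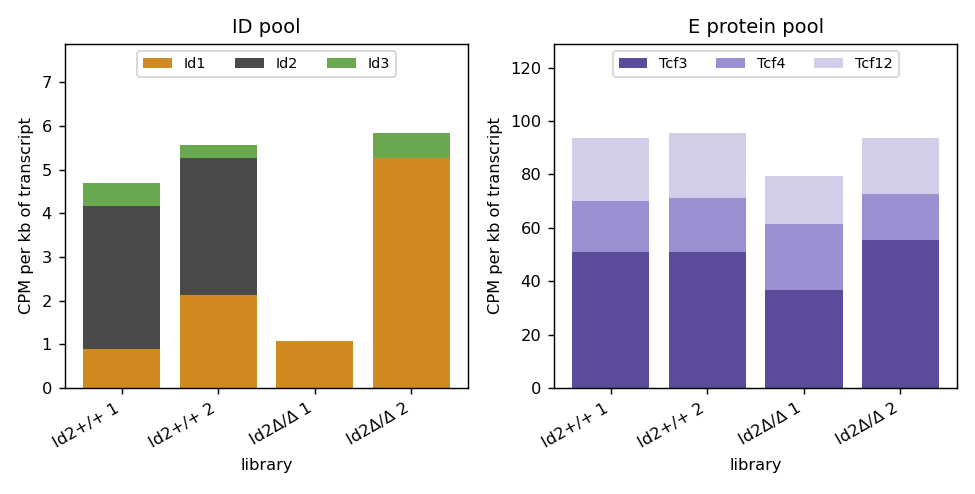
Stacked bars of the ID transcripts (left) and the E protein transcripts (right) in each library, in CPM per kilobase of the longest annotated transcript. The left bars reach 4.70 and 5.56 in Id2+/+ and 1.08 and 5.84 in Id2Δ/Δ, and the right bars lie between 79.3 and 95.5, while in undivided CPM or by coding length both Id2Δ/Δ pools lay below both Id2+/+ pools. The ID pool includes *Id2*, the targeted gene.

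The E protein genes were abundant in all libraries and none of them passed the test, which did not call *Id2* either. *Tcf3*, on chromosome 10 from 80409514 to 80433647, encodes the E proteins that early B cells depend on. It was at 7.23 and 7.24 log2 CPM in the Id2+/+ libraries and at 6.76 and 7.36 in Id2Δ/Δ replicates 1 and 2, so the Id2Δ/Δ libraries lay on either side of the controls. Its log2 fold change was -0.17 (SE 0.19, 95% interval -0.63 to 0.28, adjusted p = 0.924 from limma), and it was 0.12 without Id2Δ/Δ replicate 1.
*Tcf4*, on chromosome 18, encodes the E protein known for plasmacytoid dendritic cells. It was at 7.37 and 7.44 log2 CPM in Id2+/+ and at 7.72 and 7.21 in Id2Δ/Δ replicates 1 and 2. Here too the Id2Δ/Δ libraries lay on either side of the controls, in the opposite order to *Tcf3*. The log2 fold change was 0.06 (SE 0.17, 95% interval -0.35 to 0.47, adjusted p = 0.961 from limma), and it was -0.19 without Id2Δ/Δ replicate 1.
*Tcf12*, on chromosome 9 from 71842688 to 72111871, encodes HEB, an E protein best known in T cell development. It was at 7.22 and 7.25 log2 CPM in Id2+/+ and at 6.82 and 7.05 in Id2Δ/Δ, so both Id2Δ/Δ values lay below both controls. Such a position was held by 15.8% of all tested genes. The log2 fold change was -0.30 (SE 0.13, 95% interval -0.60 to 0.0040, unadjusted p = 0.0524, adjusted p = 0.910 from limma), and leaving out each library in turn gave -0.41 to -0.19.

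Per length, *Tcf3* made up 54.2% and 53.5% of the summed E protein transcripts in Id2+/+ and 46.3% and 59.2% in Id2Δ/Δ replicates 1 and 2. *Tcf4* made up 20.5% and 21.2% in Id2+/+ and 31.0% and 18.4% in Id2Δ/Δ. For both genes the Id2+/+ libraries differed by less than a percentage point, while the Id2Δ/Δ libraries differed by more than 10. *Tcf12* made up 25.3% in each Id2+/+ library and 22.7% and 22.4% in Id2Δ/Δ, the only one of these shares in which the genotypes did not overlap (exact two-sided permutation p = 0.333, the smallest possible). The summed pool was 93.7 and 95.5 CPM per kilobase in Id2+/+ and 79.3 and 93.7 in Id2Δ/Δ. It was 464 and 476 against 432 and 444 in undivided CPM and 226 and 232 against 210 and 217 per kilobase of coding length, where the Id2Δ/Δ libraries lay below both controls (exact permutation p = 0.333 each).

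*Tal1* and *Lyl1*, which encode close relatives that pair with E proteins in HSCs, had their higher values in the Id2Δ/Δ libraries, and neither passed the test. *Tal1*, on chromosome 4 from 115056426 to 115071755, was at 5.88 and 6.08 log2 CPM in Id2+/+ and at 6.38 and 6.21 in Id2Δ/Δ. Its log2 fold change was 0.31 (SE 0.15, 95% interval -0.04 to 0.66, unadjusted p = 0.0752, adjusted p = 0.910 from limma), with 0.21 to 0.41 when each library was left out. *Lyl1*, on chromosome 8 from 84701457 to 84704715, had 300 and 358 reads in Id2+/+ and 520 and 438 in Id2Δ/Δ replicates 1 and 2, at the depths above.
In log2 CPM, *Lyl1* was at 4.41 and 4.52 in Id2+/+ and at 4.89 and 4.53 in Id2Δ/Δ, so that Id2Δ/Δ replicate 2 was only just above the higher control. Its log2 fold change was 0.25 (SE 0.21, 95% interval -0.25 to 0.74, adjusted p = 0.910 from limma) and fell to 0.07 in the lowest of the fits without a library. Both genes had Id2Δ/Δ values above both controls, as 19.0% of all tested genes did. Summed per length, *Tal1* and *Lyl1* came to 27.5% and 30.1% of the E protein pool in Id2+/+ and to 45.6% and 32.4% in Id2Δ/Δ replicates 1 and 2 (exact two-sided permutation p = 0.333, the smallest possible).

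**Figure D3:**
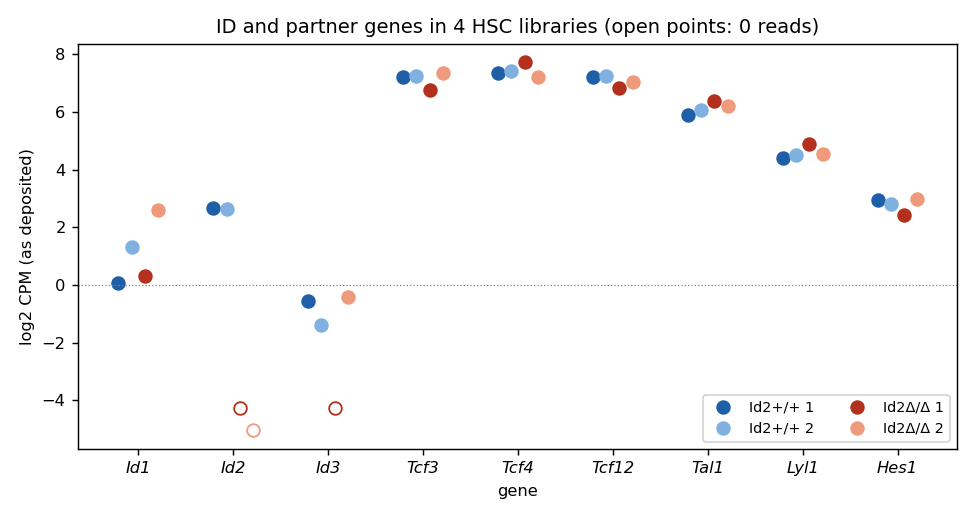
Deposited log2 CPM (vertical axis) of the 9 genes in the 4 libraries, with open points for libraries with 0 reads. *Tcf12* lies lower and *Tal1* and *Lyl1* lie higher in both Id2Δ/Δ libraries, while for *Tcf3*, *Tcf4* and *Hes1* the Id2Δ/Δ points fall on either side of the Id2+/+ points.

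*Hes1*, on chromosome 16 from 30064384 to 30067796, encodes a basic helix-loop-helix repressor that NOTCH signals turn on and that ID proteins can also bind. It had 111 reads in each Id2+/+ library and 95 and 141 in Id2Δ/Δ replicates 1 and 2, which is 2.93 and 2.81 against 2.41 and 2.98 log2 CPM. The controls lay between the Id2Δ/Δ libraries. The log2 fold change was -0.18 (SE 0.34, 95% interval -0.97 to 0.61, adjusted p = 0.945 from limma), and it was 0.10 without Id2Δ/Δ replicate 1.

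**Figure D4:**
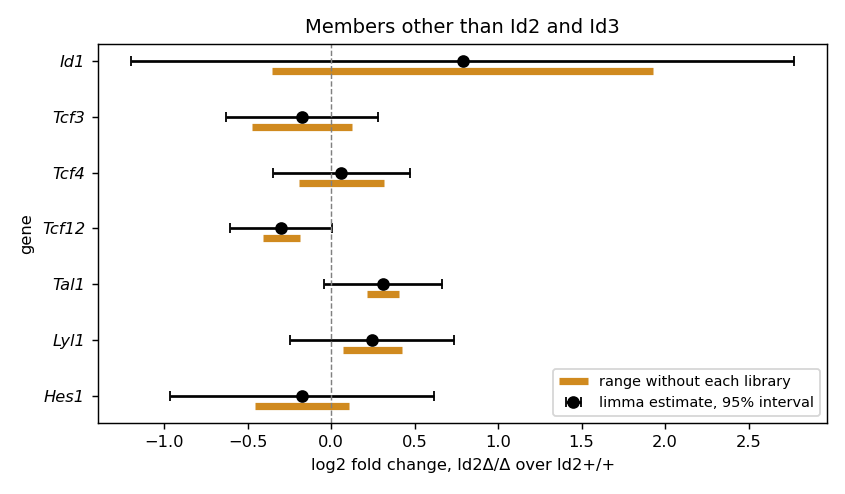
Log2 fold change from Id2+/+ to Id2Δ/Δ (horizontal axis) with its 95% interval from limma for the 7 tested genes other than *Id2*, and in orange the range of fits that left out 1 library. All 7 black intervals include 0, and the orange ranges of *Tcf12*, *Tal1* and *Lyl1* stay on one side of it.

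Of the 8 tested genes, 0 had an adjusted p-value under 0.05, as in 0% of all tested genes, and *Id2* alone had an unadjusted p-value under 0.05, which 4.67% of all tested genes had (1.72% higher and 2.95% lower in Id2Δ/Δ). The genotypes did not overlap in *Id2*, *Tcf12*, *Tal1* and *Lyl1*, or 4 of 8, beside 34.8% of all tested genes. Without *Id2*, whose loss was made, 3 of 7 remain. Apart from *Id1*, *Id2* and *Id3*, the widest gap between Id2Δ/Δ replicates was 0.60 on the log2 scale, for *Tcf3*, where the Id2+/+ replicates differed by 0.0081. A larger gap than that of *Tcf3* was held by 23.4% of all tested genes in Id2Δ/Δ and by 97.1% in Id2+/+. In Id2+/+ HSCs the order of the levels per length was *Tcf3* (50.9 CPM per kilobase), *Tcf12* (23.9), *Tcf4* (19.7), *Tal1* (15.0), *Lyl1* (12.3), *Hes1* (4.99), *Id2* (3.20), *Id1* (1.51) and *Id3* (0.414). No neighbours in this order overlapped between the 2 Id2+/+ libraries. The place of *Id2* rests on the 1969 bases of its longest transcript, and the order of the E protein genes rests on the length used. By coding length *Tcf4* came first of them, at 35.5% of their sum in Id2+/+, before *Tcf3* at 33.4% and *Tcf12* at 31.0%. In Id2Δ/Δ HSCs the ranges of *Tcf12* (17.99 to 20.99), *Tcf4* (17.2 to 24.6) and *Tal1* (17.5 to 19.7) overlapped, as did those of *Hes1* (3.63 to 5.36) and *Id1* (1.08 to 5.26).

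Genes around this network were read from lists, and none passed the test. SCL complex partners, the proteins that TAL1 and LYL1 work with, had 15 of 15 genes tested, with 8 higher and 7 lower in Id2Δ/Δ and a median log2 fold change of 0.0035, beside 0.011 for all tested genes. *Lmo2*, the adaptor of the complex, was at 10.02 and 9.91 log2 CPM in Id2+/+ and at 9.82 and 9.80 in Id2Δ/Δ, a log2 fold change of -0.15 (SE 0.09). *Gata2*, an HSC factor, was at 0.0035 (SE 0.13). *Gata1*, the erythroid and megakaryocyte factor, was at 4.85 and 4.81 in Id2+/+ and 5.37 and 5.09 in Id2Δ/Δ, a log2 fold change of 0.41 (SE 0.18, unadjusted p = 0.0603). The genotypes did not overlap in 1 gene of this list that was higher in Id2Δ/Δ, *Gata1*, and in 2 of 15 that were lower, beside 19.0% and 15.8% of all tested genes.

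Of 18 SCL target genes 15 were tested, and 6 were higher and 9 lower, with a median of -0.11. In 2 of them both Id2Δ/Δ values lay above and in 6 below both controls, beside 19.0% and 15.8% of all tested genes. *Gata1*, *Gata2*, *Lmo2*, *Runx1*, *Erg* and *Gfi1b* are also SCL complex partners above. Of these, *Gata1*, *Lmo2* and *Runx1* did not overlap between the genotypes and are counted in both lists. The median was 0.018 without Id2Δ/Δ replicate 1. *Kit*, the stem cell factor receptor, had the smallest p-value of the list, with a log2 fold change of -0.63 (SE 0.13, unadjusted p = 0.00172, adjusted p = 0.910 from limma). *Mef2c*, a factor for lymphoid priming, was at 9.03 and 9.19 in Id2+/+ and 8.75 and 8.90 in Id2Δ/Δ, a log2 fold change of -0.29 (SE 0.11, unadjusted p = 0.0348).

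E protein target genes were mostly without values. Of 24, 13 had no row, among them *Rag1*, *Rag2*, *Dntt*, *Ebf1* and *Pax5*, which E proteins drive in lymphoid progenitors. Of the 10 tested, 3 were higher and 7 lower, with a median of -0.10, which was 0.0097 without Id2Δ/Δ replicate 1 and -0.26 without Id2+/+ replicate 2. In 0 of the 10 both Id2Δ/Δ values lay above and in 3 below both controls, beside 19.0% and 15.8% of all tested genes. *Foxo1* was at 5.92 and 5.63 log2 CPM in Id2+/+ and 5.05 and 5.47 in Id2Δ/Δ, a log2 fold change of -0.52 (SE 0.20, unadjusted p = 0.0349). *Bcl11a*, a factor of lymphoid and dendritic cells, was at 8.49 and 8.38 in Id2+/+ and 8.27 and 7.99 in Id2Δ/Δ, a log2 fold change of -0.31 (SE 0.13, unadjusted p = 0.0446). *Cdkn1a*, which encodes the cell-cycle inhibitor p21 and was picked out after its values were seen, had 110 and 231 reads in Id2+/+ and 43 and 205 in Id2Δ/Δ replicates 1 and 2. Like *Id1*, it was higher in replicate 2 of each genotype, and its log2 fold change was -1.02 (SE 0.69, adjusted p = 0.910 from limma) with overlapping genotypes.

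Of 25 NOTCH and HES/HEY genes 18 were tested, with 7 higher, 11 lower and a median of -0.08, which was -0.02 without Id2Δ/Δ replicate 1, -0.13 without Id2+/+ replicate 1 and -0.20 without Id2+/+ replicate 2. *Tle4* and *Tle2*, corepressors that HES proteins recruit, had log2 fold changes of -0.38 and -0.34 (SE 0.13 each, unadjusted p = 0.0217 and 0.0364), and both Id2Δ/Δ values lay below both controls. Such a position was held by 5 of the 18 tested genes of this list, beside 15.8% of all tested genes. In 1 of the 18 both Id2Δ/Δ values lay above both controls, beside 19.0%. *Notch4* had 18 and 12 reads in Id2+/+ and 44 and 84 in Id2Δ/Δ, a log2 fold change of 1.84 (SE 0.64, unadjusted p = 0.0223). *Adam10*, a protease that cuts NOTCH receptors, was at -0.11 (SE 0.14). Each had an adjusted p-value of 0.910 or above from limma.

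Among 15 coactivators and corepressors of E proteins, all tested, 7 were higher and 8 lower, with a median of -0.04, which was 0.00033 without Id2Δ/Δ replicate 1 and 0.04 without Id2+/+ replicate 2. *Ncor1*, *Crebbp* and *Ep300* had log2 fold changes of -0.12, -0.05 and -0.26, with SEs of 0.10, 0.11 and 0.12. Of 31 other class II and ID genes, which pair with E proteins in other tissues, 25 had no row and 2 were tested. *Tcf15* was at 3.43 and 3.89 log2 CPM in Id2+/+ and 3.82 and 3.70 in Id2Δ/Δ, and *Bhlha15* had 1 and 34 reads in Id2+/+ and 48 and 10 in Id2Δ/Δ. Of 21 other basic helix-loop-helix genes 19 were tested, with 7 higher, 12 lower and a median of -0.09, which was -0.04 without Id2+/+ replicate 1. *Mga* had a log2 fold change of -0.33 (SE 0.11, unadjusted p = 0.0188), *Clock* of -0.46 (SE 0.21) and *Srebf2* of -0.11 (SE 0.12).

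**Figure D5:**
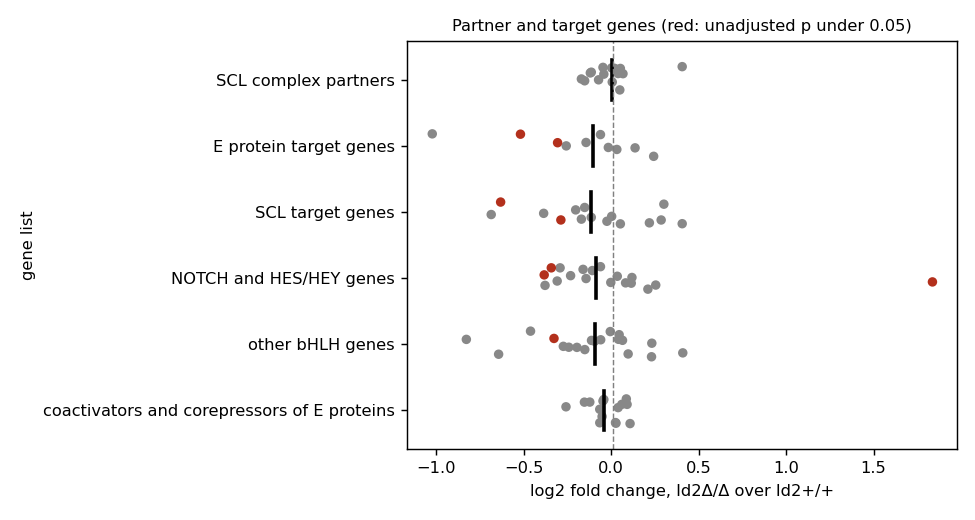
Log2 fold change from Id2+/+ to Id2Δ/Δ (horizontal axis) of each tested gene of 6 lists, with the list median as a black bar, the median of all tested genes as a dashed line, and genes with an unadjusted p-value under 0.05 in red. The medians lie between -0.11 and 0.0035, beside 0.011 for all tested genes.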

How the data were processed

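RNA-Seq libraries of sorted HSCs (LSK FLT3- CD48- CD150+) were compared, 2 for each genotype. The authors deposited log2 counts-per-million values, quantile-normalized across the 4 libraries, and this unit was read from the values. The submitters' processing notes name CASAVA 1.8.4, Trimmomatic 0.30, TopHat2 2.0.8, RSEM and STAR and the builds mm9 and NCBIM37, without roles, and the rule for strand and shared reads is not given in the sources used here. Gene positions, lengths and sequences came from GENCODE M21 (GRCm38), in which 99.7% of the Ensembl identifiers were found.

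Genes averaging 1 CPM or more were fitted with limma 3.58.1 in R 4.3.3 (lmFit, eBayes with intensity trend, genotype only, two-sided, Benjamini-Hochberg over 15895 genes). Quantile normalization moves low values and ties all genes with 0 reads. Whole reads under 32 CPM are the rank of each distinct value in its library, and for the *Id2* fold a count of 0 was taken to allow 3 reads. The ranks assume whole counts with none skipped, and the depths rest on these ranks and the normalized CPM. For *Id1* in Id2Δ/Δ replicate 2 the rank gave 108 reads and its CPM at that depth 115. For *Id2* in Id2+/+ replicate 1 they gave 93 and 91.3. Poisson and binomial intervals cover counting error only, while limma intervals come from the spread between libraries. The scripts were tested on simulated data.

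Members and lists were chosen with earlier results of these data known. Some lists share genes. Named genes are the members, the 2 most abundant and the 2 of smallest p in each list, and the 3 tested genes most like *Id2*. The alternatives varied pseudocount, scaling, filter, trend, threshold, replicate number, length and the libraries included.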

Additional observations from a re-analysis of the deposited data

How the results depend on the processing

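No paired analysis was used for the main values, since replicate numbers are not tied to an experiment and same-numbered libraries deviated with a correlation of 0.0592. A fit with replicate block called 1 gene, *C130089K02Rik*, named after its values were seen, and none of the 9 genes. In the other fits, leave-one-out fits included, 0 genes were called, and the adjusted p of *Id2* in limma, 0.910 in the report, ranged from 0.266 to 1. The genes at an unadjusted p under 0.05, 742 in the report, were 2516 and 1242 without Id2Δ/Δ replicate 2 or 1 and 196 and 246 without Id2+/+ replicate 1 or 2. In these fits 1 genotype has a single library, assumed to vary like the other genotype, whose libraries give all of the spread. At an unadjusted p under 0.05, 1 of the 9 genes passed, *Id2*, which no longer enters at a mean of at least 10 CPM. No pseudocount or rescaling turned a member's direction, and leaving out an Id2Δ/Δ library turned 4. *Id1* ranged from -0.35 to 1.93, *Tcf3* from -0.47 to 0.12, *Tcf4* from -0.19 to 0.32 and *Hes1* from -0.46 to 0.10.

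The pool shares depend on the length used. With CPM not divided by length and with coding length, *Id2* made up 73.7% and 73.4% of the Id2+/+ ID pool on average (63.0% by longest transcript), the ID pool came to 1.83% and 8.07% of the E protein pool (5.42%), and *Tcf4* to 36.0% and 35.5% of it (20.9%), first of the E protein genes and not last. At a mean of at least 10 CPM the medians of the E protein targets and NOTCH genes were -0.26 and -0.15. *Id3* and *Id4*, both under 1 CPM, rest on 0 to 12 reads per library.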
